A study of Mus musculus with 4 samples.

Results

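Ribosomal protein genes are the subject here: 81 genes of the cytosolic ribosome and 77 genes of the mitochondrial ribosome, together 158 of the 41214 genes counted in mouse megakaryocytes. Cytosolic members were taken by symbol, as Rpl or Rps followed by a number or as Rplp0, Rplp1, Rplp2 and Rpsa, and mitochondrial members as symbols starting with Mrpl or Mrps. Pseudogenes (symbols with -ps) and the Rps6k kinases were left out, and a gene needed at least 40 counts summed over the 4 libraries. Only Rpl3l, with 4 counts, and Rpl10l, with 0, matched by symbol and fell below that minimum, while Rpl39l, with 66 counts, and Mrpl53, with 144, stood just above it. By the letters of their symbols alone, the cytosolic members divide into 49 genes of the large 60S subunit and 32 of the small 40S subunit, and the mitochondrial members into 48 of the large 39S and 29 of the small 28S subunit. The place of each protein was not checked, so single members may be assigned to the wrong group. By annotation 2 of the 81 cytosolic members, Rps4l and Rpl6l, are pseudogenes although their symbols lack -ps. All 158 passed the filter on low counts and were tested.

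The study sequenced RNA of megakaryocytes, the marrow cells that shed platelets, sorted by flow cytometry from tibiae, femora and humeri of C57Bl/6 mice aged 8 weeks. The gate took cells that were Lin-, cKit+, CD41+ and CD61+. There were 4 groups of 1 library each: Gfi1b knockout with PF4-Cre, Gfi1b wild-type with PF4-Cre, Gfi1b knockout with ROSA-Cre and Gfi1b wild-type with ROSA-Cre. Gfi1b encodes a zinc finger repressor that blood cells use in the megakaryocyte and red cell lineages. All 4 groups carry a Cre label. PF4-Cre takes its name from the gene of platelet factor 4, expressed in the megakaryocyte lineage. How ROSA-Cre is driven, and how many mice a library holds, is not stated in the labels. The comparison of knockout with wild-type therefore had the 2 Cre models as its replicates, and its p-values measure only the spread between these libraries.

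The ribosome translates mRNA into protein. Its cytosolic form joins a small subunit, which reads the mRNA, to a large subunit, which forms the peptide bond. Many cytosolic ribosomal protein mRNAs begin with a run of pyrimidines, the 5′ terminal oligopyrimidine motif, through which their translation is tied to mTOR signalling. The mitochondrial ribosome makes a small set of membrane subunits of the respiratory chain from mitochondrial DNA, but its own proteins are encoded in the nucleus and imported.

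Start-site sequences are printed for 6 members that passed the test of the knockout against wild-type, as examples with and without each of 2 motifs counted below. Each runs 5′ to 3′ on the gene's strand, from 100 bases before to 20 bases after the start annotated by RefSeq on GRCm38.p6. They are those of the cytosolic genes Rpl35 (chr2:39005112-39005231, minus strand), Rpl38 (chr11:114668480-114668599, plus strand) and Rps2 (chr17:24719963-24720082, plus strand) and the mitochondrial genes Mrps26 (chr2:130563657-130563776, plus strand), Mrpl34 (chr8:71464826-71464945, plus strand) and Mrpl16 (chr19:11770315-11770434, plus strand). Capitals mark, in both classes, runs of at least 8 pyrimidines within 20 bases of the start, and CCGGAAG or its complement CTTCCGG, the core of sites bound by ETS family factors.
Rpl35: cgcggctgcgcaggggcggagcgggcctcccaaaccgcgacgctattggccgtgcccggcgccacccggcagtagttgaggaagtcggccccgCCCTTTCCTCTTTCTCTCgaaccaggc
Rpl38: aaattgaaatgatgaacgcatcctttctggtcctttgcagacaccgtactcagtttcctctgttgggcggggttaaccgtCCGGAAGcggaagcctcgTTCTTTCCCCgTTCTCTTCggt
Rps2: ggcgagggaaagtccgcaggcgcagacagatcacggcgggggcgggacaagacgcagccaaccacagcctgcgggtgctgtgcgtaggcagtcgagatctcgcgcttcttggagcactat
Mrps26: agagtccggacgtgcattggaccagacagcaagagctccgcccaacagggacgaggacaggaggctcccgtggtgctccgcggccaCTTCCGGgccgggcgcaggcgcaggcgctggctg
Mrpl34: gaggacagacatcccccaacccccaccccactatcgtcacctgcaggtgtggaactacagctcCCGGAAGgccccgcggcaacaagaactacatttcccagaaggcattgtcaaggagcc
Mrpl16: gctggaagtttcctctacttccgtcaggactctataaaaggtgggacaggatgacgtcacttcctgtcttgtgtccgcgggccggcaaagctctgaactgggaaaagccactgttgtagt
Of the members past the test, 7 of 9 cytosolic and 12 of 16 mitochondrial genes had a start-site window, so the others were not searched. Of 6 cytosolic members past the test with 1 window each, 2 had a marked run, 2 a marked core and 3 neither, and of 11 mitochondrial members 1 had a run, 2 a core and 8 neither. Rps2 and Mrpl16 are shown as members with no match in the printed stretch, although the longer windows of Rps2 and Rpl35 hold the core outside it.

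Over the longer windows of 300 bases, RefSeq held 70 windows for 59 of the 81 cytosolic symbols and 74 windows for 68 of the 77 mitochondrial symbols. A pyrimidine run near the start was present in 42.9% of cytosolic windows and in 17.6% of mitochondrial windows, beside 16.2% of the 13618 windows of all tested genes. The ETS-type core CCGGAAG, searched on both strands, was present in 37.1% of cytosolic and 33.8% of mitochondrial windows, beside 16.9% of windows of tested genes. The motif AAGATGG, the core bound by YY1, was present in 15.7% of cytosolic and 17.6% of mitochondrial windows, beside 6.97% of windows of tested genes. The palindromic motif of NRF1, a regulator of nuclear genes for mitochondrial proteins, was present in 7.14% of cytosolic and 17.6% of mitochondrial windows, beside 9.45%. The E-box CACGTG, bound by MYC among others, was present in 11.4% of cytosolic and 9.46% of mitochondrial windows, beside 9.67%. AAATCAC, the core recognised by the GFI1 family, was present in 2.86% of cytosolic and 2.70% of mitochondrial windows, beside 2.14%. Each motif was searched on both strands apart from the pyrimidine run, matches of different motifs may overlap, and a match is a description of letters, not of binding.

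The PF4-Cre knockout library held 59595680 gene counts and its wild-type 61652843, and the ROSA-Cre knockout held 21835165 and its wild-type 24869421. The targeted gene went against the labels: Gfi1b had 1401 CPM (library-scaled counts, TMM-adjusted) in the PF4-Cre library labelled knockout, against 170 CPM in its wild-type, and 2462 CPM in the ROSA-Cre library labelled knockout, against 238 CPM in its wild-type. A count over the whole gene does not show whether a deleted part is missing, and every direction below is that of the libraries labelled knockout. All 12 megakaryocyte markers were above 3 counts in every library, with a summed level of 6581 to 7564 CPM in the knockout and 7085 to 9865 CPM in the wild-type libraries. They went both ways, with 7 lower in the knockout of PF4-Cre and 8 in that of ROSA-Cre. The summed level of 12 neutrophil markers was 497 to 1070 CPM in the knockout and 1743 to 1903 CPM in the wild-type libraries. Of these 12, the number lower in the knockout was 7 in PF4-Cre and 12 in ROSA-Cre.

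Ribosomal protein genes took a smaller share of the RNA in the knockout libraries of both models. The 81 cytosolic genes took 5.68% of gene counts in the PF4-Cre knockout, against 6.52% in its wild-type, while the ROSA-Cre knockout had 5.91%, against 6.84% in its wild-type. The 77 mitochondrial genes took 0.330% in the PF4-Cre knockout, against 0.374% in its wild-type, while the ROSA-Cre knockout had 0.270%, against 0.371% in its wild-type. The cytosolic share was thus lower by a similar fraction in both models, with changes of -12.9% (PF4-Cre) and -13.6% (ROSA-Cre). For the mitochondrial share the changes were -11.6% (PF4-Cre) and -27.3% (ROSA-Cre). With 1 library per group the shares have no replicate check. Their 95% Clopper-Pearson intervals, such as 5.67% to 5.68% for the PF4-Cre knockout, cover counting error only. In bulk RNA, fewer cells of a type and less RNA per cell cannot be told apart.

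**Figure D1:**
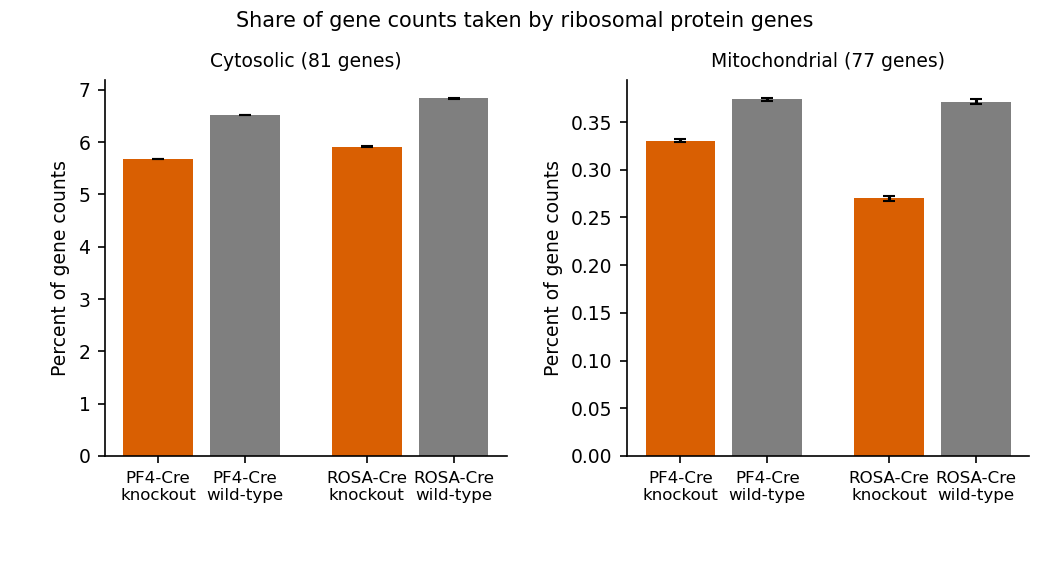
Percent of gene counts taken by the 81 cytosolic (left) and the 77 mitochondrial (right) ribosomal protein genes in each of the 4 libraries, knockout left of wild-type within each Cre model, with 95% Clopper-Pearson counting intervals as error bars and bars that start at 0. Both knockout bars stand below both wild-type bars for cytosolic genes (5.68% and 5.91% against 6.52% and 6.84%) and for mitochondrial genes (0.330% and 0.270% against 0.374% and 0.371%).

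Compared per length, the cytosolic genes were the far more abundant class. On the scale of CPM per kilobase of merged exons, the median cytosolic gene had 309 in the PF4-Cre knockout and 312 in the ROSA-Cre knockout, against 369 in the PF4-Cre wild-type and 395 in that of ROSA-Cre. The median mitochondrial gene had 13.9 in the PF4-Cre knockout and 11.5 in the ROSA-Cre knockout, against 16.5 in the PF4-Cre wild-type and 17.3 in that of ROSA-Cre. In both classes the knockout medians of both models lay below both wild-type medians. The spread within a class was also alike, since the 90th percentile of the mean level was 6.98 times the 10th among cytosolic and 6.79 times among mitochondrial genes. At least 50% of 50-base windows are shared with another gene in 52 of 81 cytosolic genes. Reads of shared sequence may have been split or dropped, so the levels, spread and ranks of cytosolic genes are uncertain.

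The most abundant cytosolic gene on this scale was Rplp1, which encodes an acidic protein of the stalk of the 60S subunit, with 1514 CPM per kilobase in the PF4-Cre knockout and 1950 in the ROSA-Cre knockout, against 2229 in the PF4-Cre wild-type and 2848 in that of ROSA-Cre. Rpl32 of the 60S subunit followed with a mean of 1234 CPM per kilobase, and Rps15 of the 40S subunit with 1224. These means lay close together, and the ranges over libraries overlapped, with 1035 to 1417 for Rpl32 and 973 to 1457 for Rps15. At the low end stood Rpl39l with a mean of 0.424 CPM per kilobase, Rpl6l with 3.63 and Rps4l with 13.8, each a relative of an abundant ribosomal protein gene. Among mitochondrial genes, Mrpl18 had a mean of 65.8 CPM per kilobase, Mrpl24 had 63.9 and Mrpl34 had 60.9, and their ranges over libraries overlapped too. The least abundant mitochondrial genes were Mrps35 with 4.67, Mrps10 with 3.89 and Mrpl53 with 1.17 CPM per kilobase. With the length of the principal transcript in place of merged exons, the upper ranks changed to Rpl32, Rps12 and Rps14 among cytosolic genes and to Mrpl24, Mrps17 and Mrpl30 among mitochondrial genes, to Mrpl47, Mrpl17 and Mrpl53 at the low end of the mitochondrial genes, and the lowest cytosolic ranks stayed Rps4l, Rpl6l and Rpl39l.

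Across the knockout comparison, the ribosomal protein genes leaned low as a class, and few single cytosolic genes passed the test. In the edgeR quasi-likelihood fit with Cre model as a term, 9 of 81 cytosolic genes were lower and 0 higher in the libraries labelled knockout, at a Benjamini-Hochberg adjusted p under 0.05. Over all 15063 tested genes the same rule called 9.59% lower and 12.6% higher, so the cytosolic count of lower genes was near the background. Of the 77 mitochondrial genes 16 were lower and 0 higher. The other tool run, the DESeq2 Wald test, called 17 cytosolic and 16 mitochondrial genes lower and 0 of either class higher, and no member was higher at an unadjusted p under 0.05 in the edgeR fit either. The median log2 fold change, knockout over wild-type, was -0.26 for cytosolic and -0.38 for mitochondrial genes, beside -0.02 for all tested genes. The fold change was negative for 79 of 81 cytosolic, 73 of 77 mitochondrial and 7822 of 15063 tested genes.

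By subunit as assigned from the symbols, 7 of 49 genes of the 60S subunit were lower, with a median of -0.28 and all 49 fold changes negative. Of the 32 genes of the 40S subunit 2 were lower, with a median of -0.21 and 30 negative. In the mitochondrial ribosome, 11 of 48 genes of the 39S subunit were lower, with a median of -0.38, and 5 of 29 genes of the 28S subunit, with a median of -0.39. The share lower was 14.3% for 60S, 6.25% for 40S, 22.9% for 39S and 17.2% for 28S, beside 9.59% of all tested genes. The level was lower in the knockout of both models for 69 of 81 cytosolic and 72 of 77 mitochondrial genes, where 40.7% of all tested genes were. Both knockout libraries lay below both wild-type libraries for 53 cytosolic and 54 mitochondrial genes, where 23.7% of all tested genes did.

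The single calls rested on all 4 libraries and on the Cre model term. A fit without 1 library, here and below, also dropped that term, so its values mix the difference between the Cre models into the genotype change. Without that term, or without any 1 of the 4 libraries, 0 members of either class passed, and at an unadjusted p under 0.05 there were 2 cytosolic and 7 mitochondrial genes without the term and at most 2 and 9 without a library. A fit with an offset for GC content and exonic length left 1 cytosolic gene, Rpl27, and 9 mitochondrial genes lower, and the medians were then -0.16 for cytosolic, -0.38 for mitochondrial and -0.04 for all tested genes. With library means kept in that offset the counts were 16 and 36, and the share of higher genes among all calls was 35.0%, against 56.9% in the fit without the offset. That scaling also moved the median of all tested genes to -0.16, and the cytosolic and mitochondrial medians then stood at -0.29 and -0.50.

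**Figure D2:**
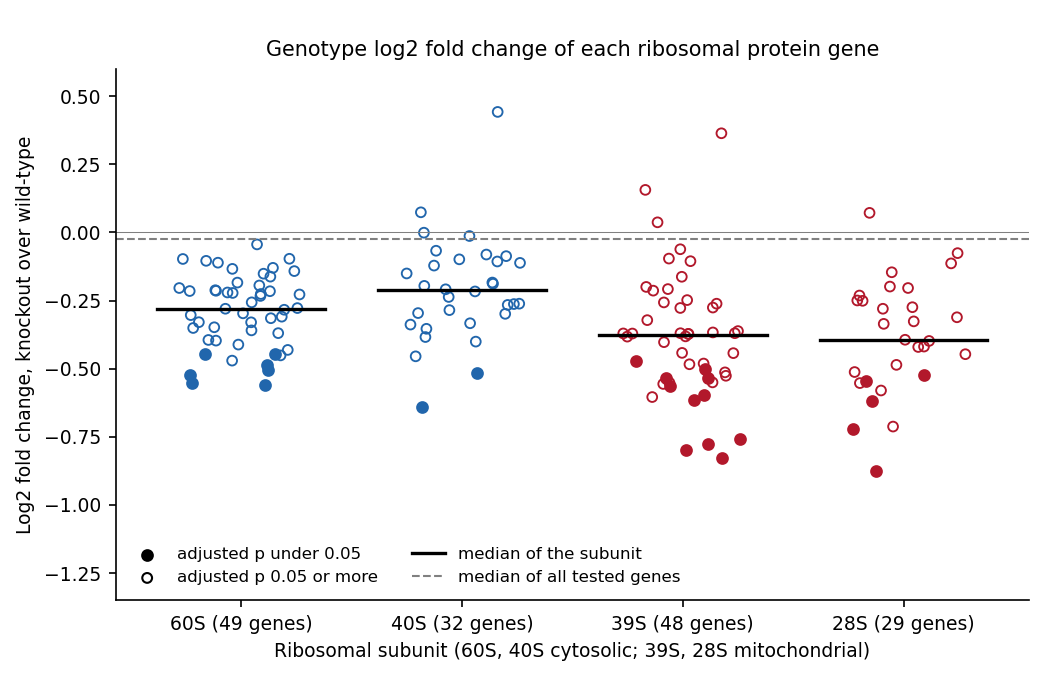
Log2 fold change (knockout over wild-type, edgeR fit over both Cre models) of each ribosomal protein gene by subunit as assigned from its symbol, with members past the test marked and the median of each subunit as a line. The medians were -0.28 for 60S, -0.21 for 40S, -0.38 for 39S and -0.39 for 28S, all below the -0.02 of all tested genes.

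Among the 9 cytosolic genes that fell, the largest change was in Rps2, a protein of the 40S subunit near the site where mRNA enters (chromosome 17, 24718116 to 24721929, plus strand, GRCm38). It had 945 CPM in the PF4-Cre knockout and 885 CPM in the ROSA-Cre knockout, against 1338 CPM in the PF4-Cre wild-type and 1517 CPM in the ROSA-Cre wild-type. Both knockout libraries lay well below both wild-type libraries, and the log2 fold change was -0.64 (SE 0.16, edgeR adjusted p 0.0307). The counting interval of the ratio was 0.699 to 0.714 with PF4-Cre and 0.573 to 0.593 with ROSA-Cre.

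Rplp1, the stalk protein named above, had 755 CPM in the PF4-Cre knockout and 973 CPM in the ROSA-Cre knockout, against 1112 CPM in the PF4-Cre wild-type and 1421 CPM in the ROSA-Cre wild-type. The knockouts did not overlap the wild-types, and both models gave nearly the same fold, 1.47-fold lower in PF4-Cre and 1.46-fold lower in ROSA-Cre (log2 fold change -0.55, SE 0.15, edgeR adjusted p 0.0373). Leaving out 1 library, and with it the Cre model term, moved the value between -0.75, without the ROSA-Cre knockout, and -0.35, without the ROSA-Cre wild-type. That range includes the difference between the Cre models and does not measure the genotype change alone. Rpl27, a 60S protein whose human counterpart is mutated in some families with Diamond-Blackfan anaemia, had 289 CPM in the PF4-Cre knockout and 254 CPM in the ROSA-Cre knockout, against 388 CPM and 411 CPM in the PF4-Cre and ROSA-Cre wild-types. Its libraries separated by genotype as well (log2 fold change -0.56, SE 0.13, edgeR adjusted p 0.025), and it was the cytosolic gene still called after the GC and length offset.

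The 60S genes Rpl35, Rpl36, Rpl38 and Rpl36al also fell, with log2 fold changes from -0.45 to -0.52, and none of them overlapped between genotypes. Both knockout libraries lay below both wild-type libraries in 7 of the 9 lower cytosolic genes, where 23.7% of all tested genes did. These 9 were chosen by a test on the same libraries, so their separation by genotype is a description. Leaving out 1 library moved Rpl36 between -0.70, without the PF4-Cre wild-type, and -0.25, without the ROSA-Cre wild-type. It moved Rpl36al between -0.83, without the PF4-Cre knockout, and -0.23, without the ROSA-Cre knockout. Rpl38, known in mice for patterning of the skeleton through selective translation, had 272 CPM in the PF4-Cre knockout and 257 CPM in the ROSA-Cre knockout, against 366 CPM and 354 CPM in the PF4-Cre and ROSA-Cre wild-types (log2 fold change -0.45, SE 0.12, edgeR adjusted p 0.0376). Rpl35, whose start site is printed above with a long pyrimidine run, had 359 CPM and 380 CPM in the PF4-Cre and ROSA-Cre knockouts, against 467 CPM and 542 CPM in the PF4-Cre and ROSA-Cre wild-types (log2 fold change -0.45, SE 0.13, edgeR adjusted p 0.0447).

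In Rpl41 and Rps27l the levels of the genotypes overlapped across models. Rpl41, a very short protein at the surface between the subunits, had 509 CPM in the PF4-Cre knockout and 647 CPM in the ROSA-Cre knockout, against 644 CPM in the PF4-Cre wild-type and 1030 CPM in the ROSA-Cre wild-type (log2 fold change -0.51, SE 0.15, edgeR adjusted p 0.0492). Within each model the knockout was the lower library, but the ROSA-Cre knockout stood level with the PF4-Cre wild-type. Its value ranged from -0.83, without the PF4-Cre wild-type, to -0.14, without the ROSA-Cre wild-type. That of Rps27l, -0.52 over all libraries, ranged from -1.02, without the PF4-Cre knockout, to -0.06, without the ROSA-Cre knockout. Both genes passed the test narrowly, and both lost the call in some of the other fits.

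Of the 9 lower cytosolic genes, 8 share at least 50% of their 50-base exon windows with another gene or pseudogene, and the exons of Rps2, Rpl35 and Rpl36al overlap another gene. Reads of such copies may have been split or dropped in the authors' counting, so these values are uncertain. Among the 29 cytosolic genes with under 50% of windows shared, 1 gene, Rps27l, was lower and the median log2 fold change was -0.21. The named -ps pseudogenes of the Rpl and Rps families, 249 in the files, took 0.0896% of gene counts in the PF4-Cre knockout, against 0.105% in the PF4-Cre wild-type, and 0.0731% in both ROSA-Cre libraries.

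**Figure D3:**
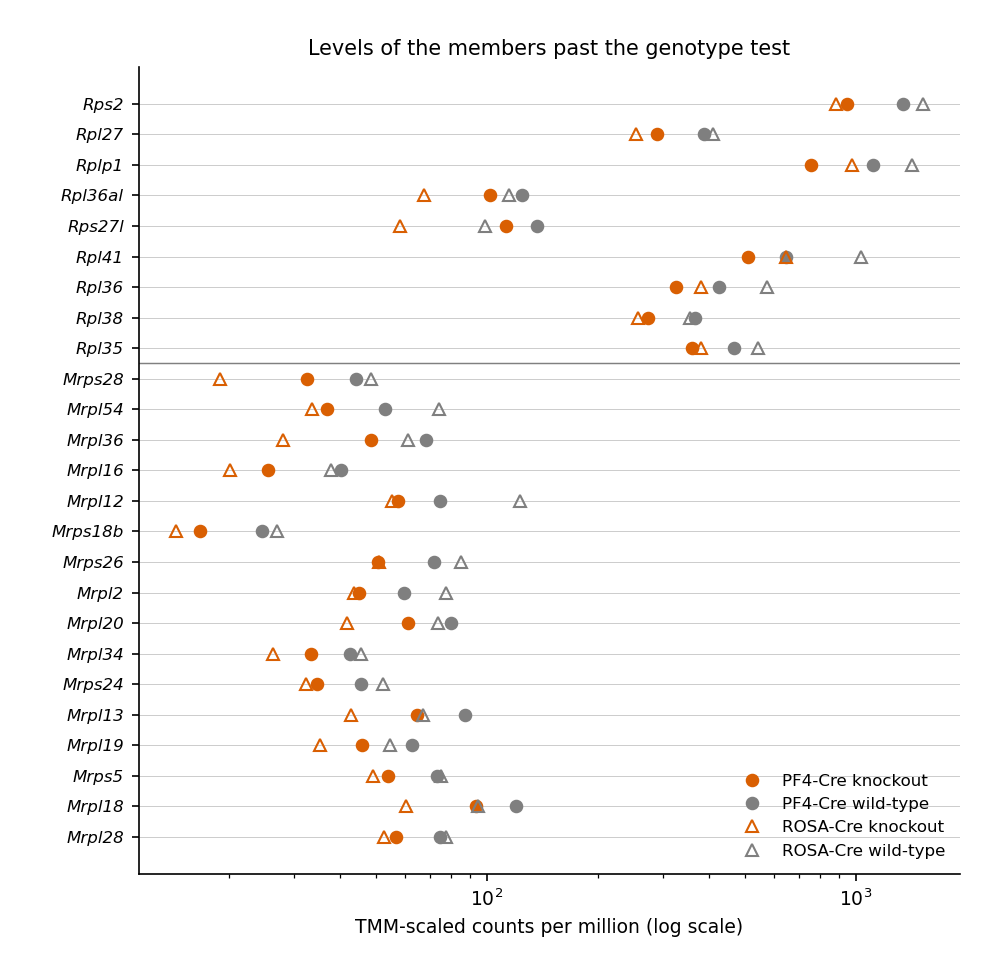
Levels (CPM, log axis) in each library of the 9 cytosolic and 16 mitochondrial genes past the test, with knockout and wild-type libraries of both Cre models as separate markers. In each gene and each model the knockout marker lies below its wild-type marker, and the knockout and wild-type ranges overlap across models in Rpl41 and Rps27l.

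At the other end, 6 cytosolic genes with the least lowered levels did not pass the test. Rps7, a 40S protein whose human counterpart also binds MDM2, had 1216 CPM in the PF4-Cre knockout and 1225 CPM in the ROSA-Cre knockout, against 1242 CPM in the PF4-Cre wild-type and 1200 CPM in the ROSA-Cre wild-type. All 4 libraries were within a narrow band for this gene (log2 fold change -0.00, SE 0.15, edgeR adjusted p 0.998). The log2 fold changes of the 40S genes Rps14, Rps16 and Rps27 were -0.07, -0.01 and 0.07, and that of the 60S gene Rpl39 was -0.04, and each changed sign under some other fit. Rps4l, annotated as a transcribed processed pseudogene and a relative of the X-linked Rps4x, was the cytosolic gene with the highest value, with 12.4 CPM in the PF4-Cre knockout and 17.7 CPM in the ROSA-Cre knockout, against 9.34 CPM in the PF4-Cre wild-type and 12.7 CPM in the ROSA-Cre wild-type (log2 fold change 0.44, SE 0.20, edgeR adjusted p 0.157).

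Genes mutated in human Diamond-Blackfan anaemia, an inherited failure of red cell production, were a further list of 21 cytosolic members. Rpl27 and Rpl35 were lower, 2 of 21, where 9.59% of all tested genes were lower, and none was higher, with a median log2 fold change of -0.20 beside -0.26 for all cytosolic members.

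Among the 16 mitochondrial genes that fell, Mrpl16 had the smallest adjusted p. It encodes a protein of the 39S subunit (chromosome 19, 11770391 to 11774960, plus strand, GRCm38) and had 25.5 CPM in the PF4-Cre knockout and 20.1 CPM in the ROSA-Cre knockout, against 40.3 CPM in the PF4-Cre wild-type and 37.7 CPM in the ROSA-Cre wild-type. The knockouts were clearly separate from the wild-types (log2 fold change -0.78, SE 0.16, edgeR adjusted p 0.0171). It was the 1 member at least 1.5-fold lower in both models, by 1.58-fold with PF4-Cre and 1.88-fold with ROSA-Cre.

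Mrps28, a 28S protein whose human counterpart is a mitochondrial disease gene (chromosome 3, 8802146 to 8923918, minus strand), had the largest change, with 32.5 CPM in the PF4-Cre knockout and 18.9 CPM in the ROSA-Cre knockout, against 44.1 CPM in the PF4-Cre wild-type and 48.5 CPM in the ROSA-Cre wild-type. The wild-types were alike and the ROSA-Cre knockout was the lowest library (log2 fold change -0.88, SE 0.23, edgeR adjusted p 0.0338). The value was -1.29 without the PF4-Cre knockout and -0.51 without the ROSA-Cre knockout. Mrpl12, a 39S protein of the stalk that has also been reported to bind the mitochondrial RNA polymerase, had 57.3 CPM in the PF4-Cre knockout and 55.4 CPM in the ROSA-Cre knockout, against 74.5 CPM in the PF4-Cre wild-type and 123 CPM in the ROSA-Cre wild-type. Here the knockouts were alike and the ROSA-Cre wild-type was the highest library (log2 fold change -0.76, SE 0.19, edgeR adjusted p 0.0309). The value was -1.12 without the PF4-Cre wild-type and -0.39 without the ROSA-Cre wild-type. For both genes the fits without 1 library lacked the Cre model term.

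Mrpl54 and Mrpl36, further 39S proteins, had log2 fold changes of -0.83 (SE 0.18, edgeR adjusted p 0.0196) and -0.80 (SE 0.18, edgeR adjusted p 0.0218). Mrpl36 had 48.4 CPM in the PF4-Cre knockout and 28 CPM in the ROSA-Cre knockout, against 68.2 CPM in the PF4-Cre wild-type and 61.1 CPM in the ROSA-Cre wild-type, and its value was -1.21 without the PF4-Cre knockout and -0.42 without the ROSA-Cre knockout. Mrps18b, a 28S protein, had a log2 fold change of -0.72 (SE 0.19, edgeR adjusted p 0.0335). The remaining 10, Mrps26, Mrps24, Mrps5, Mrpl2, Mrpl13, Mrpl18, Mrpl19, Mrpl20, Mrpl28 and Mrpl34, had log2 fold changes between -0.47 and -0.62. Without the ROSA-Cre knockout Mrpl13, Mrpl18, Mrpl19 and Mrpl20 stood at -0.25, -0.20, -0.35 and -0.33, and without the PF4-Cre knockout at -0.85, -0.83, -0.73 and -0.88.

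In all 16 mitochondrial genes both knockout libraries lay below both wild-type libraries, where 23.7% of all tested genes did, and in all 16 the fold was larger in the ROSA-Cre model, where the ratio was lower in ROSA-Cre for 7087 of 15063 tested genes. These 16 were chosen by a test on the same libraries, so both counts are descriptions. The exons of 8 of the 16, Mrpl12, Mrpl13, Mrpl18, Mrpl19, Mrpl36, Mrps18b, Mrps24 and Mrps26, overlap another gene, and the strand setting of the counting is not given in the sources used here, so their reads may include those of a partner. Sequence shared with other genes was less common than in the cytosolic class: 5 of 77 members had at least 50% of windows shared, against 52 of 81 in the cytosolic class, and among the 72 mitochondrial genes under 50% the count of lower genes was 15. The mitochondrial genes with the least lowered levels were Mrpl24, Mrps31, Mrpl1, Mrpl3, Mrps34 and Mrpl39, with log2 fold changes from 0.16 to -0.10 and none past the test. Mrpl24, a 39S protein, had 165 CPM in the PF4-Cre knockout and 139 CPM in the ROSA-Cre knockout, against 142 CPM in the PF4-Cre wild-type and 130 CPM in the ROSA-Cre wild-type (log2 fold change 0.16, SE 0.12, edgeR adjusted p 0.376).

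Mitochondrial ribosomal proteins also exist under other symbols, and 3 of 5 such genes were lower, where 9.59% of all tested genes were. Gadd45gip1, a 39S protein, had 47.1 CPM in the PF4-Cre knockout and 45.3 CPM in the ROSA-Cre knockout, against 62.6 CPM in the PF4-Cre wild-type and 76.1 CPM in the ROSA-Cre wild-type (log2 fold change -0.58, SE 0.14, edgeR adjusted p 0.0304). Ptcd3 and Chchd1 of the 28S subunit also fell (log2 fold changes -0.47 and -0.51, edgeR adjusted p 0.0372 and 0.0389). The 12 human mitoribosome disease genes among the members held 2 lower genes, Mrpl12 and Mrps28, where 9.59% of all tested genes were lower, with a median of -0.36.

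Both RNAs of the mitochondrial ribosome rose in the knockout libraries. The small rRNA mt-Rnr1 had 51.2 CPM in the PF4-Cre knockout and 89.6 CPM in the ROSA-Cre knockout, against 33.2 CPM in the PF4-Cre wild-type and 46.2 CPM in the ROSA-Cre wild-type (log2 fold change 0.79, SE 0.14, edgeR adjusted p 0.0117). The large rRNA mt-Rnr2 had 1098 CPM in the PF4-Cre knockout and 811 CPM in the ROSA-Cre knockout, against 759 CPM in the PF4-Cre wild-type and 291 CPM in the ROSA-Cre wild-type (log2 fold change 1.0, SE 0.23, edgeR adjusted p 0.0227). Both knockouts were above both wild-types in each rRNA. The libraries were made with an mRNA kit, so these counts are not a measure of all rRNA in the cells.

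Within each model, where there is 1 library per group and no test, the classes differed in how the models compared. The median log2 ratio of knockout over wild-type stood at -0.29 in PF4-Cre for cytosolic, at -0.28 for mitochondrial and at -0.05 for all tested genes. The ROSA-Cre values were -0.23 for cytosolic, -0.52 for mitochondrial and 0.00 for all tested genes. The ratio was lower in ROSA-Cre than in PF4-Cre for 66 of 77 mitochondrial genes, for 40 of 81 cytosolic genes and for 7087 of 15063 tested genes. This difference between the models cannot be tested with 1 library in each group.

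At least 1.5-fold lower in PF4-Cre were 1 cytosolic gene, Rpl39l, and 1 mitochondrial gene, Mrpl16, where 8.32% of tested genes were, so both classes lay below the background there, and 0 members were at least 1.5-fold higher, where 16.7% of tested genes were. In ROSA-Cre, where 18.1% of tested genes were at least 1.5-fold lower, 6 of 81 cytosolic and 33 of 77 mitochondrial genes were. The cytosolic 6 were Rps2, Rps27l, Rpl27, Rpl36, Rpl36al and Rpl41, all of which had also passed the test over both models. At least 1.5-fold higher in ROSA-Cre was 1 cytosolic gene, Rpl39l, where 22.3% of tested genes were. At least 2-fold lower in ROSA-Cre were 5 mitochondrial genes, Mrpl12, Mrpl36, Mrpl54, Mrps28 and Mrps36, where 7.73% of tested genes were. Across members the log2 ratios of the 2 models had a Spearman correlation of 0.413 over 81 cytosolic and 0.592 over 77 mitochondrial genes, beside 0.676 over 15063 tested genes. These are correlations across genes of the same 4 libraries, and genes are not independent replicates.

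Levels of other cell types' markers also differed between the libraries, by more in ROSA-Cre for some lists and by more in PF4-Cre for others. The summed level of 12 neutrophil markers was 497 CPM in the ROSA-Cre knockout, against 1903 CPM in its wild-type, and 1070 CPM in the PF4-Cre knockout, against 1743 CPM in its wild-type. Their median log2 ratio was -1.91 in ROSA-Cre, with 12 lower, and -0.13 in PF4-Cre, with 7 lower. The summed level of 9 monocyte and macrophage markers was 39.3 CPM in the ROSA-Cre knockout, against 93.5 CPM in its wild-type, and 94.9 CPM in the PF4-Cre knockout, against 94.3 CPM in its wild-type. The median log2 ratio of these 9 was -1.31 in ROSA-Cre, with 9 lower, and -0.60 in PF4-Cre, with 8 lower. The summed level of 6 mast cell and basophil markers was 898 CPM in the ROSA-Cre knockout, against 296 CPM in its wild-type, and 389 CPM in the PF4-Cre knockout, against 216 CPM in its wild-type. The summed megakaryocyte level was 6581 CPM in the ROSA-Cre knockout, against 9865 CPM in its wild-type, and 7564 CPM in the PF4-Cre knockout, against 7085 CPM in its wild-type. The 12 megakaryocyte markers went both ways, with 8 lower in ROSA-Cre (median log2 ratio -0.63) and 7 in PF4-Cre (-0.02). For T and NK cell markers the summed level was 84.0 CPM in the ROSA-Cre knockout, against 92.0 CPM in its wild-type, and 35.0 CPM in the PF4-Cre knockout, against 73.8 CPM in its wild-type. Of these 9 markers 7 were at or under 3 counts in each ROSA-Cre library, so the sum rested on few genes. Only 2 of the 9 were tested, and 1 of these 2 was lower in each model. B cell, erythroid, and endothelial and stromal markers had knockout over wild-type ratios of their summed levels of 0.745, 1.23 and 1.13 in ROSA-Cre, and of 0.740, 1.14 and 1.17 in PF4-Cre. Within these lists the markers went both ways. Of 13 erythroid markers 8 were lower in ROSA-Cre (median log2 ratio -0.89) and 6 in PF4-Cre (0.04). Of 7 tested endothelial and stromal markers 4 were lower in each model (-0.13 in both). Of 6 tested B cell markers 4 were lower in ROSA-Cre (-0.94) and 6 in PF4-Cre (-0.39). The part of these cell type markers in the ribosomal protein values was not tested.

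**Figure D4:**
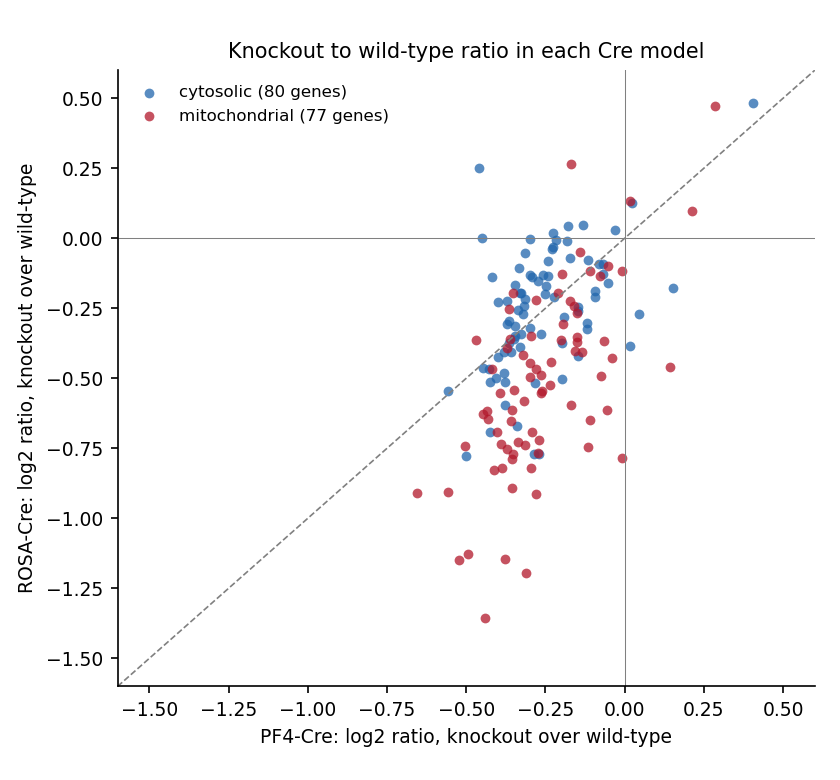
Log2 ratio of knockout over wild-type in the ROSA-Cre model (vertical axis) against the same in the PF4-Cre model (horizontal axis), 1 point per gene for 80 cytosolic and 77 mitochondrial members; Rpl39l, at 0 counts in the ROSA-Cre wild-type, is not drawn. Mitochondrial points lie mostly below the diagonal (66 of 77) and cytosolic points on both sides of it (40 of 81 below, Rpl39l included).

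Genes that build ribosomes were mostly lower as well. Of 80 tested factors of rRNA processing and ribosome assembly, 45 were lower and 0 higher in the knockout libraries by edgeR, where 9.59% of all tested genes were lower. Their median log2 fold change was -0.50. The level was lower in the knockout of both models for 75 of the 80 factors, where 40.7% of all tested genes were. Without the Cre model term 0 of them passed, and without any 1 library at most 1 did. Nolc1, a nucleolar phosphoprotein that binds small nucleolar RNA particles, had 122 CPM in the PF4-Cre knockout and 94.0 CPM in the ROSA-Cre knockout, against 192 CPM in the PF4-Cre wild-type and 210 CPM in the ROSA-Cre wild-type (log2 fold change -0.90, SE 0.15, edgeR adjusted p 0.00841). Nhp2, a core protein of the H/ACA particles that guide pseudouridine formation, had 74.4 CPM in the PF4-Cre knockout and 49.2 CPM in the ROSA-Cre knockout, against 120 CPM in the PF4-Cre wild-type and 128 CPM in the ROSA-Cre wild-type (log2 fold change -1.03, SE 0.18, edgeR adjusted p 0.0098). In both genes the knockouts were far below the wild-types. Bop1, part of the complex that matures the 60S subunit, and Ftsj3, which acts on pre-rRNA, fell too (log2 fold changes -0.84 and -0.69, edgeR adjusted p 0.00988 and 0.0105).

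RNA polymerase I, which transcribes the large rRNA precursor, was represented by 20 tested genes with 5 lower, 1 higher and a median of -0.31. Of all tested genes 9.59% were lower and 12.6% higher. Its largest subunit Polr1a had 108 CPM in the PF4-Cre knockout and 81.8 CPM in the ROSA-Cre knockout, against 167 CPM in the PF4-Cre wild-type and 160 CPM in the ROSA-Cre wild-type (log2 fold change -0.80, SE 0.13, edgeR adjusted p 0.00856). Polr1b, Polr1e and the shared subunit Polr2f were lower as well, by log2 fold changes of -0.63, -0.68 and -0.66. Taf1a, a subunit of the selectivity factor that brings the polymerase to the promoter, was the higher gene (log2 fold change 0.92, SE 0.23, edgeR adjusted p 0.0309).

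Of 49 cytosolic translation factors 16 were lower and 0 higher, with a median of -0.38, where 9.59% of all tested genes were lower and 12.6% higher. They included the termination factors Gspt1 and Etf1 (log2 fold changes -0.64 and -0.63) and the initiation factor subunits Eif3i and Eif3g (-0.60 and -0.61). On the mitochondrial side, 5 of 32 factors of translation and mitoribosome assembly were lower and 0 higher, with a median of -0.13. These 5 genes are 15.6% of the list, beside 9.59% lower among all tested genes. Named by the smallest p were Lrpprc, which stabilises mitochondrial mRNA (log2 fold change -0.62), the assembly factor Rbfa (-0.56), and the elongation factors Tsfm (-0.65) and Gfm1 (-0.55). Among 17 mitochondrial aminoacyl-tRNA synthetases, which charge the tRNAs read by this ribosome, Cars2, Sars2 and Aars2 were lower and Lars2 was higher. The lower genes are 17.6% of this list, beside 9.59% of all tested genes, of which 12.6% were higher. Lars2 had 63.1 CPM in the PF4-Cre knockout and 360 CPM in the ROSA-Cre knockout, against 32.8 CPM in the PF4-Cre wild-type and 147 CPM in the ROSA-Cre wild-type (log2 fold change 1.12, SE 0.13, edgeR adjusted p 0.00269).

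Of 19 regulators of ribosomal protein synthesis 4 were lower and 1 higher, with a median of -0.29, where 9.59% of all tested genes were lower and 12.6% higher. Myc, a transcription factor known to drive ribosome production, had 26.1 CPM in the PF4-Cre knockout and 32.3 CPM in the ROSA-Cre knockout, against 40.1 CPM in the PF4-Cre wild-type and 51.2 CPM in the ROSA-Cre wild-type (log2 fold change -0.64, SE 0.14, edgeR adjusted p 0.0221). Larp1, which binds the pyrimidine motif of ribosomal protein mRNAs, and the mTOR target Eif4ebp1 fell by 0.63 and 0.88 on the log2 scale (edgeR adjusted p 0.0155 and 0.0184). Mxd4, a partner of MAX that opposes MYC, rose, with 141 CPM in the PF4-Cre knockout and 217 CPM in the ROSA-Cre knockout, against 95.5 CPM in the PF4-Cre wild-type and 127 CPM in the ROSA-Cre wild-type (log2 fold change 0.67, SE 0.12, edgeR adjusted p 0.0116). As with the members, the calls in these lists rested on the whole design: without the Cre model term or any 1 library, at most 1 gene of a list passed.

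**Figure D5:**
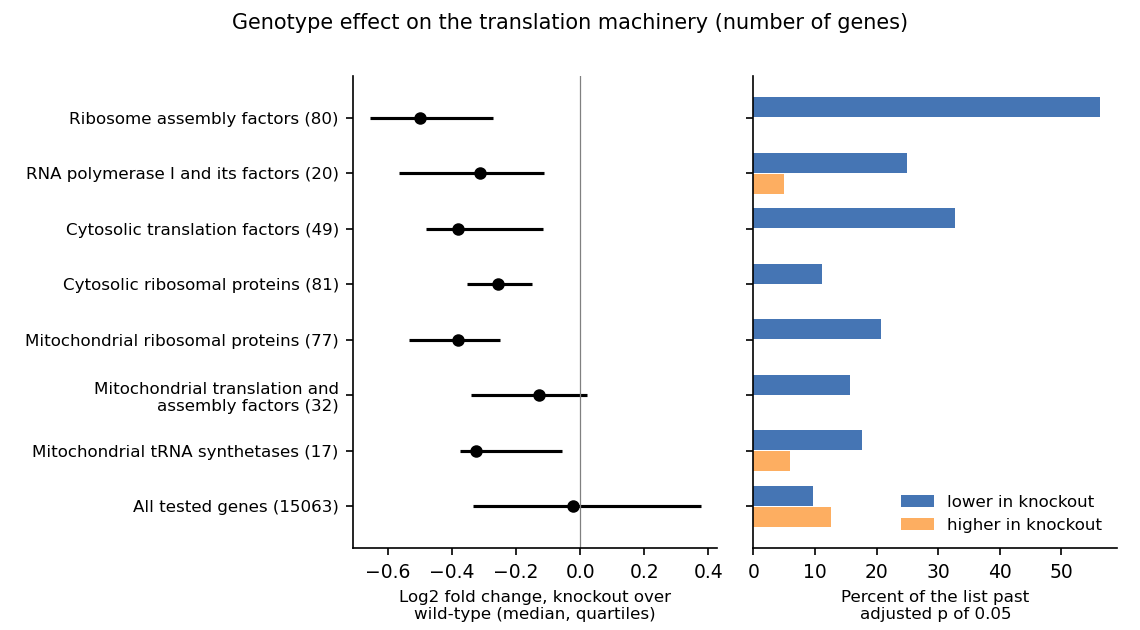
Lists of the translation machinery, 1 row each with the number of tested genes in brackets: the left panel gives the log2 fold change, knockout over wild-type (dot, median; line, quartiles), and the right panel the percent of the list past an adjusted p of 0.05, lower and higher in knockout as separate bars that start at 0. Ribosome assembly factors have the lowest median at -0.50, cytosolic and mitochondrial ribosomal proteins stand at -0.26 and -0.38, and all tested genes at -0.02.

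Few members passed the comparison of the Cre models. In the same edgeR fit, 3 of 81 cytosolic genes were higher and 3 lower in ROSA-Cre than in PF4-Cre libraries, where 8.33% of tested genes were higher and 10.4% lower, so the cytosolic counts were below the background. Of the 77 mitochondrial genes 8 were lower and 0 higher, so that the share lower was near the background. The median log2 fold change, ROSA-Cre over PF4-Cre, was 0.04 for cytosolic, -0.17 for mitochondrial and 0.02 for all tested genes. Neither class median kept its direction under every alternative: the cytosolic one was -0.032 with the GC and length offset and -0.088 without the PF4-Cre knockout, and the mitochondrial one 0.13 without the ROSA-Cre knockout and 0.026 without the PF4-Cre wild-type.

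Rps29, a 40S protein with a zinc-binding motif, had 412 CPM in the ROSA-Cre knockout and 497 CPM in the ROSA-Cre wild-type, against 235 CPM in the PF4-Cre knockout and 228 CPM in the PF4-Cre wild-type (log2 fold change 0.97, SE 0.14, edgeR adjusted p 0.00694). Rps16 and Rps27 were also higher in ROSA-Cre (log2 fold changes 0.89 and 0.48, edgeR adjusted p 0.00828 and 0.0359). Rpl39, which lines the tunnel through which the new peptide leaves, had 447 CPM in the ROSA-Cre knockout and 433 CPM in the ROSA-Cre wild-type, against 778 CPM in the PF4-Cre knockout and 853 CPM in the PF4-Cre wild-type (log2 fold change -0.89, SE 0.14, edgeR adjusted p 0.00859). Rps27l and Rpl35a were lower too (log2 fold changes -0.71 and -0.64), and Rps27l stood at -1.10 without the ROSA-Cre wild-type and -0.33 without the ROSA-Cre knockout. In Rps29, Rps16, Rps27, Rpl39, Rps27l and Rpl35a alike, the levels of the ROSA-Cre and PF4-Cre libraries did not overlap. These genes were chosen by a test on the same libraries, so this separation is a description. The share of all tested genes separated in this way was not counted.

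The 8 lower mitochondrial genes were Mrpl47, Mrpl1, Mrps22, Mrps18c, Mrpl32, Mrpl35, Mrpl18 and Mrpl13, with log2 fold changes from -0.87 for Mrpl47 to -0.48 for Mrpl13. Without 1 library the value moved by over 1.5 times in Mrpl13, Mrpl18, Mrpl35 and Mrps22: without the ROSA-Cre wild-type Mrpl13, Mrpl18 and Mrpl35 stood at -0.82, -0.82 and -0.85, without the ROSA-Cre knockout at -0.18, -0.17 and -0.37, and Mrps22 stood at -0.44 without the PF4-Cre wild-type. The Cre comparison moved with base composition: its log2 fold change had a Spearman correlation with GC content of 0.439 over 81 cytosolic, 0.491 over 77 mitochondrial and 0.593 over all tested genes with a value, where that of the genotype comparison was -0.209, -0.308 and -0.144. With the GC and length offset, Rps16 and Rps29 remained higher and Rpl39 lower, and no mitochondrial gene passed. That offset also gave a share of 63.5% higher genes among all calls, against 44.4% without it. Without the genotype term, or without any 1 library, 0 members passed by edgeR, and at an unadjusted p under 0.05 there were 5 cytosolic and 3 mitochondrial genes without the term and at most 5 and 10 without a library. The models also differed in depth, so depth, base composition and Cre model cannot be told apart.

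Paralogues of some members were compared with their partners as a share of the counts of the pair. Rps27l, which in human cells is induced by p53, made up 58.4% of the Rps27l and Rps27 pair in the PF4-Cre knockout, against 63.3% in its wild-type, while the ROSA-Cre knockout had 33.4%, against 48.3% in its wild-type. Rpl36al made up 21.5% of its pair with Rpl36a in the PF4-Cre knockout, against 21.2% in its wild-type, while the ROSA-Cre knockout had 15.6%, against 21.0% in its wild-type. Both paralogues thus took a smaller share in the ROSA-Cre knockout, and Rpl36al did not in the PF4-Cre knockout. Rps4l stayed under 1% of its pair with Rps4x in every library, at 0.739% in the PF4-Cre knockout, against 0.455% in its wild-type, while the ROSA-Cre knockout had 0.950%, against 0.680% in its wild-type. Of the 50-base windows, 98.6% of Rps27 and 22.4% of Rps27l are shared with another gene. The values are 85.5% for Rpl36a, 63.3% for Rpl36al, 72.2% for Rps4x and 18.0% for Rps4l. Reads of shared sequence may have been split or dropped, so these shares do not show which gene of a pair was more expressed.

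Rpl39l, known for its role in the testis, was near the floor, with 16 counts in the PF4-Cre knockout, against 39 in its wild-type, while the ROSA-Cre knockout had 11 counts, against 0 in its wild-type. Its share of the Rpl39 pair was at most 0.110%, and the 0 counts allow a share of up to 0.0346% by the 95% Clopper-Pearson interval. Rpl22l1, a partner of Rpl22, made up 21.1% of its pair in the PF4-Cre knockout, against 18.0% in its wild-type, while the ROSA-Cre knockout had 10.3%, against 7.75% in its wild-type. Here too shared sequence differed, with 65.6% of the windows of Rpl22l1 and 24.5% of those of Rpl22 found in another gene. Rpl3l and Rpl10l, known from muscle and testis, had 4 and 0 counts over the 4 libraries.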

How the data were processed

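Each library had its own table of read counts by Ensembl gene, deposited by the authors without normalisation. Per the submitters' processing notes the tools were TopHat2 2.0.10, SAMtools, HTSeq and DESeq, on mm10 (GRCm38), with no settings given. Per the labels' protocols the libraries came from a stranded mRNA kit. Pooling of mice, the counting's strand setting and the annotation release are not stated in those sources. Each file held 41214 gene identifiers, of which 40254 had a symbol and 40340 had GRCm38 coordinates (GENCODE M21). Reads with no gene (32.1% to 36.2% of uniquely aligned reads) stayed out of library sizes and tests. Alignments with no unique place came to 0.990 to 1.19 per gene count.

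Groups came from the sample titles. Genotype and Cre model were tested in 1 additive model over the 4 libraries with edgeR 4.0.16 (R 4.3.3): TMM, filterByExpr (minimum count 10), the quasi-likelihood F-test and Benjamini-Hochberg adjustment over the 15063 tested genes at 0.05. Each gene had 1 residual degree of freedom, with 6.25 more from the prior, and the common biological variation was 16.1%. The current quasi-likelihood method was used in place of the package default, which is the older method, and this was settled with both results known. The code was tested on simulated data. Within a model, log2 ratios used a pseudocount of 1, and ratios had 95% Clopper-Pearson intervals. These intervals, and the floor of 3 counts set for each library, reflect counting error alone: no molecular identifiers mark separate molecules. Shared sequence was measured as the percent of 50-base windows of the principal transcript found in another gene. Promoter windows, 250 bases before to 50 after a start, came from RefSeq (GRCm38.p6).

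Members, gene lists and tests were chosen with earlier results of these data known. The text names members past the genotype test, the 6 highest and 6 lowest fold changes of each class at a mean of at least 5 CPM, the 3 most and least abundant per length, members past the Cre test, a chosen set of paralogues with their partners, up to 4 genes per list and Gfi1b. Genes overlapping others, 38 cytosolic and 32 mitochondrial members, are uncertain. Alternatives were other size factors, filters, tests (DESeq2 1.42.0), priors, model terms, offsets, denominators and leaving out each library. The result of 1 further gene list is not reported here.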

Additional observations from a re-analysis of the deposited data

Results flagged for a closer look

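In 8 members every library pair of one Cre model moved one way and that of the other model the opposite way, with counting intervals of the ratio that exclude 1 in both models. With 1 library per group, none of these differences between the models was tested.

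In the 60S subunit, Rpl39 had a knockout over wild-type ratio of 1.03 in ROSA-Cre and of 0.912 in PF4-Cre. Rpl39l had a ratio of 0.405 in PF4-Cre, from 16 counts in the knockout and 39 in the wild-type, and was at least 4.03-fold higher in the ROSA-Cre knockout, where 11 counts stood against 0 set at a floor of 3 counts. In the 40S subunit, Rps14 had a ratio of 1.03 in ROSA-Cre and 0.884 in PF4-Cre, and Rps7 had 1.02 in ROSA-Cre and 0.979 in PF4-Cre. The opposite order was seen in Rps16, with 0.884 in ROSA-Cre and 1.11 in PF4-Cre, and in Rps29, with 0.830 in ROSA-Cre and 1.03 in PF4-Cre.

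Among mitochondrial genes, Mrpl1 had a ratio of 1.20 in ROSA-Cre (interval 1.08 to 1.34) and 0.890 in PF4-Cre (0.844 to 0.939). Mrps21, of the 28S subunit, had 0.726 in ROSA-Cre (0.647 to 0.814) and 1.10 in PF4-Cre (1.03 to 1.19). It stood at 26.1 CPM in the PF4-Cre knockout, against 23.7 CPM in its wild-type, and at 22.1 CPM in the ROSA-Cre knockout, against 30.4 CPM in its wild-type. These intervals cover counting error only.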

How the results depend on the processing

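No paired analysis was possible because the labels give no replicate numbers, beyond the pairing by Cre model, whose term in the fit already sets each knockout beside the wild-type of its own model. The p-values rest on 1 residual degree of freedom per gene, and leaving a library out also drops the other term from the model.

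In the genotype comparison, the counts of lower cytosolic and mitochondrial genes were 9 and 16. They were 17 and 16 by the DESeq2 Wald test, 2 and 1 with no filter on low counts, 4 and 14 at a mean of at least 5 CPM, 1 and 9 with the GC and length offset, 16 and 36 with library means kept in that offset, and 0 and 0 without the Cre model term or without any 1 library. Restricted to members under 50% of windows shared, 1 cytosolic gene was lower. The cytosolic median of -0.26 became -0.20 at a mean of at least 5 CPM and -0.16 with the offset, and ranged from -0.27 to -0.23 without 1 library. The mitochondrial median of -0.38 ranged from -0.60, without the PF4-Cre knockout, to -0.28. No class median changed direction. Over all tested genes, no filter gave 1406 higher and 529 lower, dropping the Cre model term 158 and 4, and leaving out a library at most 854 and 207, against 1904 and 1444. Lists of the machinery also lost calls: without a filter 18 of the 45 assembly factors were lower.

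In the Cre comparison, 3 cytosolic genes were lower and 3 higher, and 8 mitochondrial genes lower. Without the genotype term or any 1 library all 3 counts were 0. Lower cytosolic genes were 1 under both offsets, higher ones 7 by the DESeq2 Wald test and at a mean of at least 5 CPM. Lower mitochondrial genes were 4 with no filter and 0 under both offsets, and 1 was higher at a mean of at least 5 CPM. The cytosolic median of 0.04 was 0.082 at that minimum, -0.032 with the offset, -0.062 with library means kept, and -0.088 to 0.17 without 1 library. The mitochondrial median of -0.17 ranged from -0.42 to 0.13.

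At a 2-fold limit within a model, the cytosolic count in ROSA-Cre was 0 in place of 6, the mitochondrial count 5 in place of 33, and that in PF4-Cre 0 in place of 1.

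Single genes near 0 changed sign. With the GC and length offset, the log2 fold change was -0.066 for Mrpl1, 0.089 for Mrps34, 0.045 for Rpl39, 0.029 for Rps14, 0.093 for Rps16 and 0.094 for Rps7. With library means kept, it was -0.19 for Mrpl1 and -0.068 for Mrps31. At a mean of at least 5 CPM, Rpl39 stood at 0.010, Rps16 at 0.041 and Rps7 at 0.053. With no filter Rps16 stood at 0.000676 and Rps7 at 0.013. Mrpl1 stood at -0.0079 without the Cre model term, and Rps7 at 0.0057 with DESeq2 size factors, 0.0026 with factors from the other genes and 0.0011 by DESeq2. Without 1 library, Mrpl1 ranged from -0.39 to 0.57, Mrpl3 from -0.23 to 0.095, Mrpl39 from -0.19 to 0.019, Mrps31 from -0.032 to 0.21, Mrps34 from -0.33 to 0.21, Rpl39 from -0.52 to 0.50, Rps14 from -0.20 to 0.067, Rps16 from -0.50 to 0.58, Rps27 from -0.20 to 0.33 and Rps7 from -0.0089 to 0.027. The cause was not tested. Both shares kept their direction under both other denominators.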
